A study of Mus musculus with 48 samples.

Results

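This report follows 10 genes of mouse hippocampus, Rundc1, Prosc, Noxred1, Mkks, Icosl, Plekhm1, Gpt2, Tiparp, Mcl1 and Vcl, across the 8 groups of a study of conditional CB1 deletion. The genes were taken by name from the 24421 genes of the count table, because they changed after an open field exposure in these libraries and do not belong to the classical immediate early genes. All 10 were present, and all 10 passed the filter on low counts in every comparison described here. Their open field values are therefore given as a description and were not tested. No numeric threshold came with the choice, so no members lie just inside or outside one.

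CB1, encoded by Cnr1, is the main cannabinoid receptor of neurons. It was deleted from forebrain glutamatergic neurons in Glu-CB1-KO mice (nex-cre x CB1f/f) or from forebrain GABAergic neurons in GABA-CB1-KO mice (dlx5/6-cre x CB1f/f), and each line, here the Glu line and the GABA line, had its own CB1-WT littermates. RNA was sequenced from the Cornus Ammonis of male mice labelled as 8 weeks old, after removal of the dentate gyrus, either in the basal state (home cage) or an hour after a 5 min exposure to an open field, a new arena that the mouse explores freely. The Glu line gave 5 CB1-WT and 7 CB1-KO libraries in the basal state and as many of each after open field exposure, and the GABA line gave 6 CB1-WT and 6 CB1-KO basal libraries and 7 CB1-WT and 5 CB1-KO open field libraries. The text of the study gives the open field sizes of the GABA line the other way round, and the library labels were followed here. The Cre drivers act from development on, so the mutants had matured without the receptor in the targeted neurons, and animals were picked for sequencing partly by tissue purity, behaviour and induced neuronal activity, which limits how freely the open field groups represent unselected mice.

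A new environment drives hippocampal neurons to fire, and calcium and kinase signals then switch on immediate early genes such as Fos, Arc and Egr1 within minutes. A slower and broader set of genes follows, with products for metabolism, adhesion, membrane traffic and cell survival. All open field libraries were taken an hour after exposure, so their values do not place the members in either set. The same exposure is also a mild stressor, and the glucocorticoids it releases act on transcription through their own receptor.

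Between 25892654 and 34091080 reads were counted per library, with a median of 30975561. Levels are given as CPM, the read counts of a gene scaled to the total of its library after TMM normalisation between libraries. The targeted gene matched its labels: Cnr1 ranged from 338 to 412 CPM in Glu-CB1-WT basal libraries and from 208 to 248 CPM in Glu-CB1-KO basal libraries. After open field exposure it ranged from 336 to 394 CPM in GABA-CB1-WT and from 100 to 155 CPM in GABA-CB1-KO libraries. Markers of the labelled tissue were present, with 7 CA1 pyramidal markers summing to 5597 to 6997 CPM, while 4 of 5 blood markers were at 0 in every library. The 8 dentate granule markers summed to 322 to 656 CPM, so some signal of these cells, or of others that share the markers, remained. The 6 choroid plexus markers summed to a median of 65.1 CPM over all libraries but reached 4044 CPM in GABA-CB1-KO open field replicate 4 and 1505 CPM in GABA-CB1-WT basal replicate 3. Another library stood apart in activity: in GABA-CB1-KO basal replicate 5 the mean log2 CPM of 29 immediate early genes was 4.24, against a group median of 3.77 and a lowest value of 4.03 in the GABA-CB1-KO open field group. Values without these libraries are given beside the larger shifts in members' values.

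Levels between genes were compared per length of the merged exons, as CPM per kilobase over all 48 libraries. Gpt2, the mitochondrial alanine aminotransferase that interconverts alanine and pyruvate with glutamate, was the most abundant at 28.01 ± 3.70 CPM per kilobase (SD, n = 48). Mcl1, an anti-apoptotic member of the BCL2 family with a short-lived protein, followed at 22.7 ± 1.80, and Prosc, a pyridoxal phosphate binding protein of vitamin B6 homeostasis, at 16.5 ± 1.12. Vcl, which encodes the adhesion protein vinculin, and Rundc1, a RUN domain gene, lay at 14.3 ± 1.20 and 14.1 ± 1.13 CPM per kilobase, a gap smaller than either spread. Mkks, a chaperonin-like protein of the Bardet-Biedl syndrome group, was at 9.86 ± 0.898. Icosl, the ligand of the T cell costimulatory receptor ICOS, and Plekhm1, an adaptor of late endosome and autophagosome fusion with lysosomes, did not differ beyond their spread, at 7.47 ± 1.07 and 7.07 ± 0.547 CPM per kilobase. Tiparp, a mono-ADP-ribosyltransferase that is induced by and represses the aryl hydrocarbon receptor, was at 5.77 ± 0.934. Noxred1, a gene named for a predicted NADP-dependent oxidoreductase domain, was lowest at 1.13 ± 0.478, with only 18 to 99 reads per library against at least 454 for each other gene.

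In mm10 coordinates, as the gene model of the count table gives them, Rundc1 spans chr11:101425085-101435665 and Plekhm1 chr11:103365092-103412664, Prosc chr8:27042555-27056132 and Gpt2 chr8:85492617-85527558, and Tiparp chr3:65528447-65555518 and Mcl1 chr3:95658721-95663178. Noxred1 lies at chr12:87221123-87238601, Mkks at chr2:136873781-136891406, Icosl at chr10:78069368-78079525 and Vcl at chr14:20929433-21033673. Noxred1, Mkks and Plekhm1 are on the minus strand. Exons of 3 members overlap a gene on the opposite strand: Rundc1 shares 249 bases with Ptges3l, Mkks 172 bases with Slx4ip and Tiparp 186 bases with 4931440P22Rik. Reads were counted with a strand setting, but whether the kit marks strand is not given in the sources used here, so reads in these stretches may not be separable. The neighbours were low, at mean levels of 1.54, 6.05 and 0.136 CPM. Ptges3l and Slx4ip did not pass the test after open field exposure in either line (edgeR adjusted p between 0.796 and 0.980). Noxred1 starts 273 bases beyond the end of Vipas39, a gene of the same strand at 63.4 CPM, whose log2 difference after open field exposure was 0.00 in both lines (edgeR adjusted p = 0.971 and 0.976).

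Promoter windows of 9 members, 250 bases before to 50 bases after the start, were read from RefSeq (GRCm38.p6, the same primary coordinates as mm10), and 6 of these starts equal those of the count table's gene model. Prosc had no matching entry. Because the members were all higher after a stimulus that raises neuronal activity, the windows were searched on both strands for sites of activity-dependent factors and of the aryl hydrocarbon receptor. For each kind of site found, stretches around sites before the start are shown 5′ to 3′ on the strand of the gene, with the site in capitals. Those of Mkks, Rundc1 and Tiparp also lie within an exon of the gene on the opposite strand.
Mkks, CRE palindrome, chr2:136891536-136891565, minus strand: tgttcgctctcTGACGTCActcggaccggc
Vcl, CArG box, chr14:20929148-20929217, plus strand: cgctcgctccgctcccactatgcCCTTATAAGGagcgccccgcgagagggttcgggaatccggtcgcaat
Plekhm1, short CRE core, chr11:103412761-103412830, minus strand: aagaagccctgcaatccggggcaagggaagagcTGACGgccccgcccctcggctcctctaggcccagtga
Rundc1, short CRE core, chr11:101425055-101425084, plus strand: catggcagcaagggggcgccacTGACGtgc
Tiparp, xenobiotic response element core, chr3:65528262-65528291, plus strand: cccctccgtccggagCACGCgcacgggagg

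The palindromic cAMP response element TGACGTCA, bound by CREB family factors, was found only in the window of Mkks, 148 bases before the start, and in 1.79% of all 32851 windows. The CArG box, bound by serum response factor, was found only in that of Vcl, 227 bases before the start, and in 1.63% of all windows. The short core TGACG, which the palindrome contains, was found in 4 of 9 members (Rundc1, Mkks, Plekhm1 and Mcl1) and in 20.8% of all windows. Sites of it 4 bases before the start in Plekhm1 and 16 bases after the start in Mcl1 are not shown. The core GCGTG of the xenobiotic response element, bound by the aryl hydrocarbon receptor, was found in Tiparp, 170 bases before the start, and in Mkks, 39 bases after the start and not shown, and in 32.4% of all windows. The AP-1 site and the EGR site were found in none of the 9 and in 5.2% and 3.47% of all windows. These are matches of letters in the windows searched and do not show binding.

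The groups are ordered below from the survival and stress genes to the metabolic genes, the genes of adhesion and membrane traffic, and the surface ligand. Differences come from edgeR fits to the raw counts and are given as log2 differences ± standard error, open field minus basal. In bulk tissue a higher level can come from more cells or from more RNA per cell, and these cannot be told apart.

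**Figure D1:**
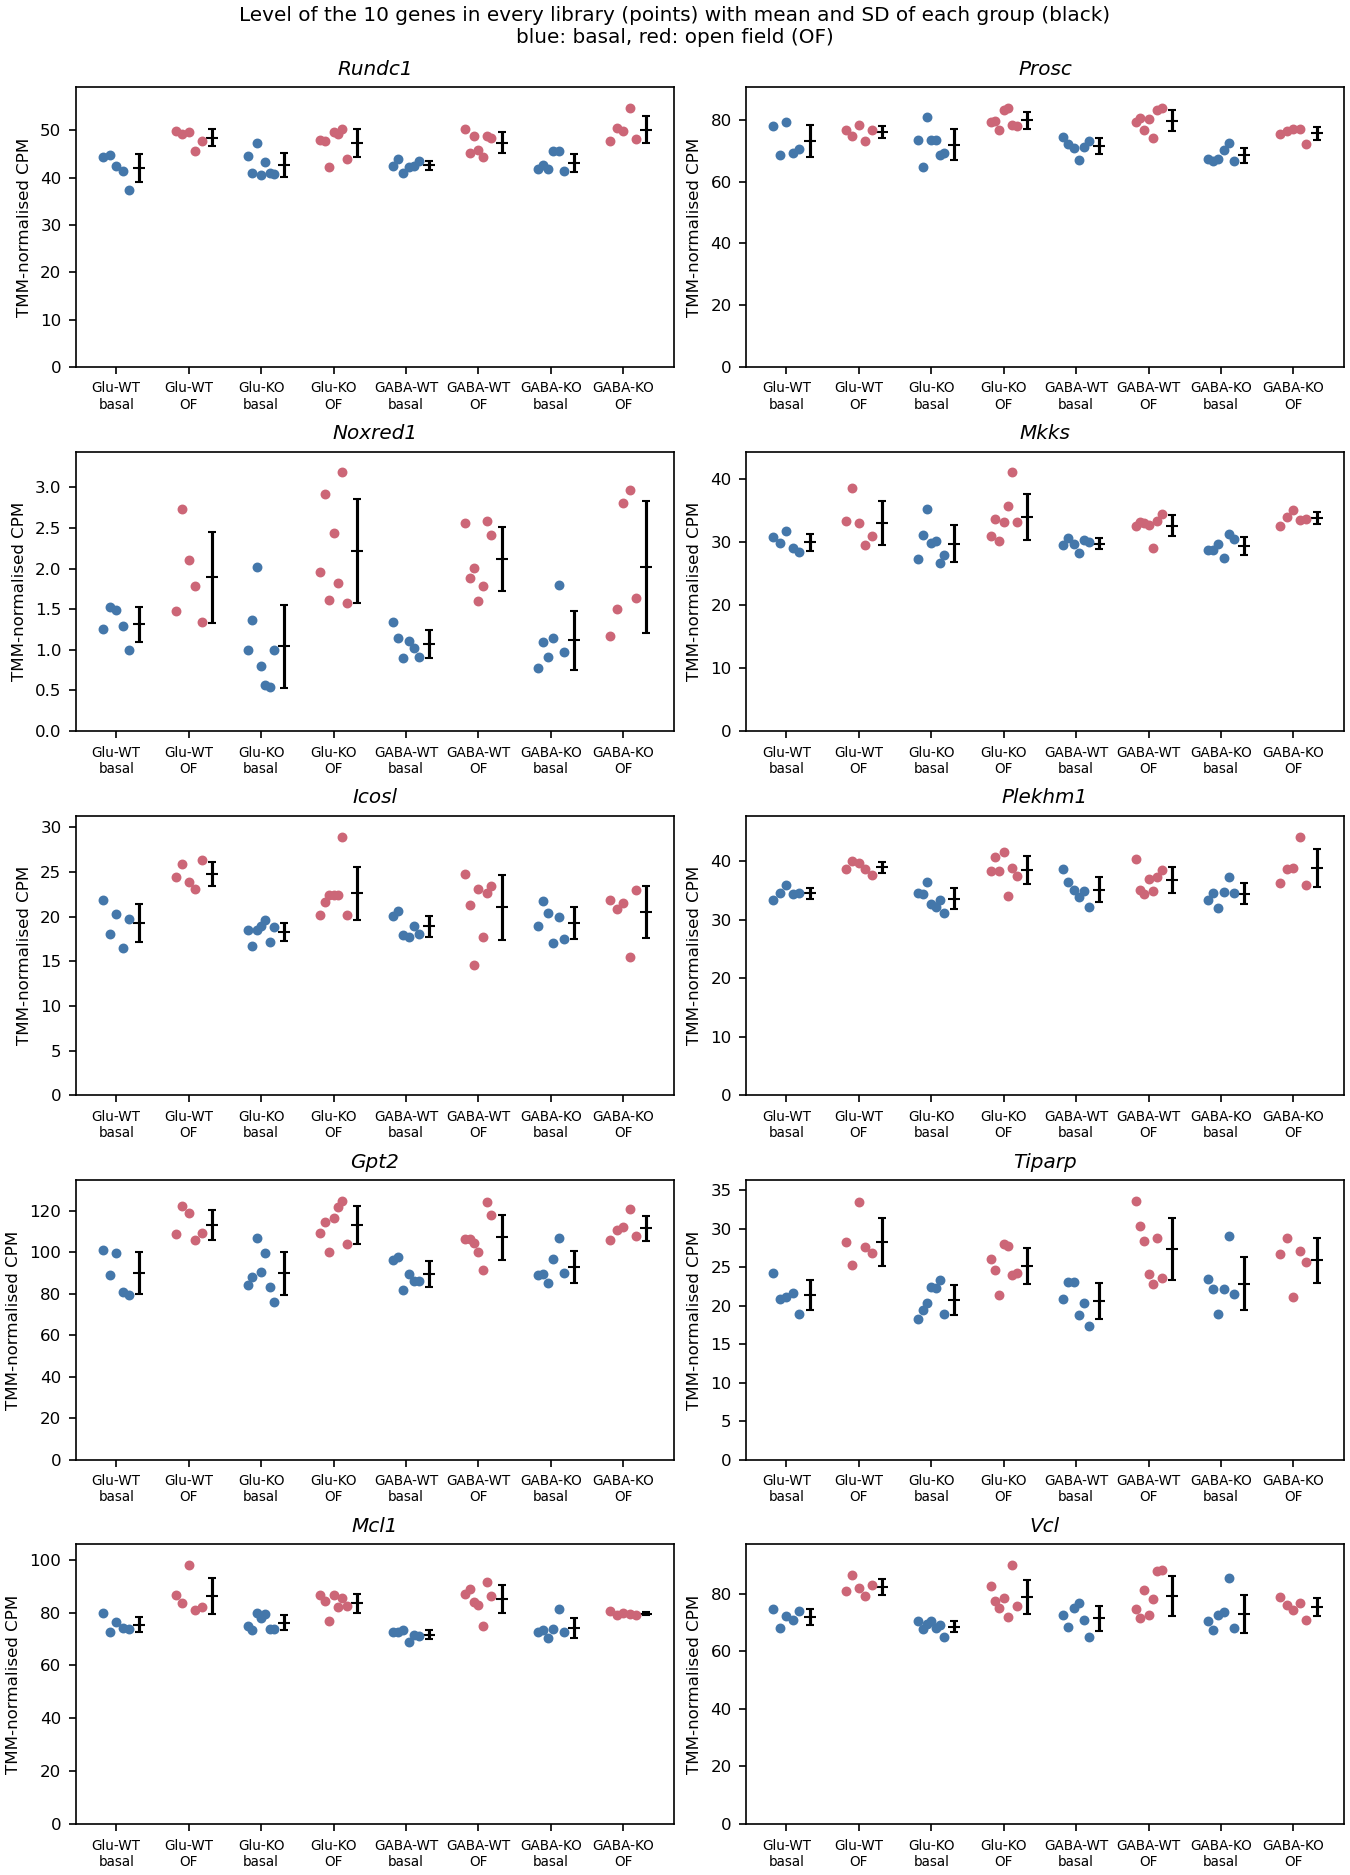
Level of each of the 10 genes in TMM-normalised CPM (vertical axes, each from 0 and each on its own scale) in the 8 groups of line, genotype and state (horizontal axes); points are libraries, blue for basal and red for open field, and black marks are the group mean and SD. The open field mean lies above the basal mean of the same line and genotype in every panel, while Noxred1 lies between 0.542 and 3.19 CPM and Gpt2 between 75.8 and 124.7 CPM.

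Mcl1 was higher after open field exposure in both lines, by 0.16 ± 0.03 in the Glu line and 0.18 ± 0.03 in the GABA line. In Glu-CB1-WT mice the 5 basal libraries were at 80.0, 72.8, 76.3, 74.0 and 73.9 CPM and the 5 open field libraries at 86.6, 83.5, 98.0, 81.1 and 82.3 CPM. These groups did not overlap, and the library at 98.0 CPM was the highest of all 48. In Glu-CB1-KO mice Mcl1 ran from 73.3 to 80.0 CPM (median 75.1) in the basal state and from 76.7 to 86.7 CPM (median 84.2) after exposure. In GABA-CB1-WT mice it ran from 68.7 to 73.5 CPM (median 71.9) and from 74.9 to 91.5 CPM (median 86.5), again without overlap. In GABA-CB1-KO mice it ran from 70.5 to 81.4 CPM (median 73.1) in the basal state, and the 5 open field libraries lay close together at 80.6, 79.0, 79.7, 79.7 and 79.0 CPM. Here the groups overlapped through a single basal library, replicate 5, which was above every open field library. The log2 difference ranged over the line and genotype groups from 0.10 ± 0.04 in GABA-CB1-KO to 0.25 ± 0.04 in GABA-CB1-WT.

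Tiparp was higher by 0.33 ± 0.05 in the Glu line and 0.31 ± 0.07 in the GABA line, a fold of 1.26 and 1.24. Among Glu-CB1-WT mice the basal libraries were at 24.3, 20.9, 21.1, 21.6 and 18.9 CPM and the open field libraries at 28.2, 25.2, 33.4, 27.6 and 26.8 CPM, without overlap. In Glu-CB1-KO mice Tiparp ran from 18.2 to 23.3 CPM (median 20.4) and from 21.4 to 28.003 CPM (median 24.6). The 2 groups overlapped in 1 open field library, and the other 6 were above every basal one. In GABA-CB1-WT mice the range was 17.4 to 23.1 CPM (median 20.6) in the basal state and 22.8 to 33.6 CPM (median 28.4) after exposure, with 6 of 7 open field libraries above every basal one. In GABA-CB1-KO mice it was 18.9 to 29.04 CPM (median 22.2) in the basal state, and the open field libraries were at 26.7, 28.9, 21.1, 27.1 and 25.7 CPM. None of these 5 exceeded the highest basal library, which was again replicate 5. Without that library the log2 difference of the GABA line was 0.34.

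Gpt2 was higher by 0.33 ± 0.05 in Glu mice and by 0.26 ± 0.04 in GABA mice. Basal Glu-CB1-WT libraries were at 101, 89.0, 99.7, 80.9 and 79.2 CPM and the open field libraries at 109, 122, 119, 106 and 109 CPM, without overlap. In Glu-CB1-KO mice it ran from 75.8 to 107 CPM (median 87.8) and from 99.98 to 124.7 CPM (median 115). The GABA-CB1-WT range was 81.8 to 97.5 CPM (median 87.7) in the basal state and 91.3 to 124 CPM (median 106) after exposure. In GABA-CB1-KO mice the basal range was 85.3 to 107 CPM (median 89.7), and the open field libraries were at 106, 110, 112, 120.9 and 108 CPM. Gpt2 was also the most even of the larger differences, from 0.26 to 0.33 in the 4 line and genotype groups.

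Prosc had the smallest difference in the Glu line, 0.11 ± 0.03, and 0.15 ± 0.02 in the GABA line. In Glu-CB1-WT mice the basal libraries, at 78.0, 68.7, 79.5, 69.2 and 70.5 CPM, spanned the open field libraries, at 76.8, 74.7, 78.3, 73.3 and 76.8 CPM, and the log2 difference of 0.05 ± 0.05 was no larger than its error. In the other groups the difference was 0.15 ± 0.04 in Glu-CB1-KO, 0.16 ± 0.03 in GABA-CB1-WT and 0.15 ± 0.03 in GABA-CB1-KO. No pair of states was free of overlap for Prosc.

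Noxred1 had by far the largest difference and the widest error, 0.85 ± 0.18 in the Glu line and 0.92 ± 0.15 in the GABA line, a fold of 1.81 and 1.89. In Glu-CB1-WT mice the basal libraries were at 1.26, 1.53, 1.49, 1.30 and 0.994 CPM and the open field libraries at 1.48, 2.73, 2.11, 1.78 and 1.35 CPM, so that 3 of 5 were above every basal one. In Glu-CB1-KO mice it ran from 0.542 to 2.02 CPM (median 0.998) and from 1.57 to 3.19 CPM (median 1.96). A single basal library at 2.02 CPM lay within the open field range. In GABA-CB1-WT mice the ranges of 0.899 to 1.34 CPM (median 1.07) and 1.599 to 2.58 CPM (median 2.01) did not overlap. In GABA-CB1-KO mice the basal range was 0.771 to 1.80 CPM (median 1.03), and the open field libraries were at 1.17, 1.51, 2.81, 2.97 and 1.63 CPM. The library at 2.97 CPM is the one with the high choroid plexus signal, and without it the difference of the GABA line was 0.84 ± 0.15. Counts for this gene were low, so a single library carries more counting error than for the other members.

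Vcl was higher by 0.20 ± 0.03 in the Glu line and 0.10 ± 0.04 in the GABA line. It did not overlap between states in either genotype of the Glu line. Basal Glu-CB1-WT libraries were at 74.6, 67.9, 72.3, 71.0 and 74.1 CPM and the open field libraries at 80.7, 86.5, 82.1, 79.3 and 82.9 CPM. In Glu-CB1-KO mice it ran from 64.9 to 70.4 CPM (median 69.2) and from 72.0 to 89.9 CPM (median 77.5). In the GABA line the states overlapped in both genotypes. GABA-CB1-WT libraries ran from 65.02 to 76.8 CPM (median 71.7) and from 71.5 to 88.2 CPM (median 78.2). In GABA-CB1-KO mice the basal range was 67.3 to 85.3 CPM (median 71.6), the open field libraries were at 79.0, 76.2, 74.2, 76.6 and 70.8 CPM, and the log2 difference of 0.05 ± 0.06 was within its error. Leaving out basal replicate 5, the library at 85.3 CPM, gave 0.13 ± 0.04 for the GABA line.

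Plekhm1 and Rundc1 followed a similar size. Plekhm1 was higher by 0.19 ± 0.03 in the Glu line, where Glu-CB1-WT libraries ran from 33.4 to 35.999 CPM in the basal state and from 37.7 to 40.0 CPM after exposure, without overlap. In the GABA line its difference was 0.12 ± 0.04, and GABA-CB1-WT ranges of 32.2 to 38.6 CPM and 34.3 to 40.3 CPM mostly coincided. The highest Plekhm1 value, 44.2 CPM, came from the GABA-CB1-KO library with the high choroid plexus signal. Without that library the difference of the GABA line was 0.09 ± 0.03. Rundc1 was higher by 0.17 ± 0.03 and 0.18 ± 0.03 in the 2 lines, and its states did not overlap in Glu-CB1-WT, GABA-CB1-WT and GABA-CB1-KO. Its ranges were 37.4 to 44.8 CPM against 45.6 to 49.8 CPM in Glu-CB1-WT, 41.03 to 43.97 CPM against 44.4 to 50.3 CPM in GABA-CB1-WT, and 41.5 to 45.6 CPM against 47.8 to 54.8 CPM in GABA-CB1-KO. In Glu-CB1-KO the ranges of 40.7 to 47.3 CPM and 42.4 to 50.4 CPM overlapped.

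Mkks was higher by 0.17 ± 0.05 in the Glu line and 0.17 ± 0.03 in the GABA line. The spread after exposure was wide in the Glu line, from 29.4 to 38.6 CPM in CB1-WT and from 30.2 to 41.05 CPM in Glu-CB1-KO, against 28.3 to 31.7 CPM and 26.7 to 35.2 CPM in the basal state. In GABA-CB1-KO the ranges of 27.4 to 31.3 CPM and 32.5 to 35.1 CPM did not overlap, and in GABA-CB1-WT 6 of 7 open field libraries were above the basal range of 28.2 to 30.5 CPM.

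Icosl was the member whose values differed most between lines, with 0.33 ± 0.05 in the Glu line and 0.13 ± 0.07 in the GABA line. In Glu-CB1-WT mice the basal libraries were at 21.9, 17.997, 20.3, 16.5 and 19.7 CPM and the open field libraries at 24.4, 25.9, 23.9, 23.1 and 26.3 CPM, without overlap. Glu-CB1-KO libraries ran from 16.7 to 19.6 CPM (median 18.5) and from 20.1 to 28.9 CPM (median 22.4), also without overlap. In GABA-CB1-WT mice the basal range was 17.7 to 20.6 CPM (median 18.5), while the open field range of 14.6 to 24.7 CPM (median 22.6) held both the lowest value of all 48 libraries and 5 libraries above every basal one. In GABA-CB1-KO mice the basal range was 17.03 to 21.8 CPM (median 19.5), and the open field libraries were at 21.8, 20.8, 21.5, 15.5 and 22.98 CPM, the lowest of them again the library with the high choroid plexus signal. The difference of the GABA line was 0.16 ± 0.07 without that library. The difference between lines, Glu minus GABA, was 0.21 ± 0.09 for Icosl and 0.10 ± 0.05 for Vcl, and lay between -0.11 and 0.07 for the other 8 members. It was not tested, because the members may have been picked on the response of 1 line.

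**Figure D2:**
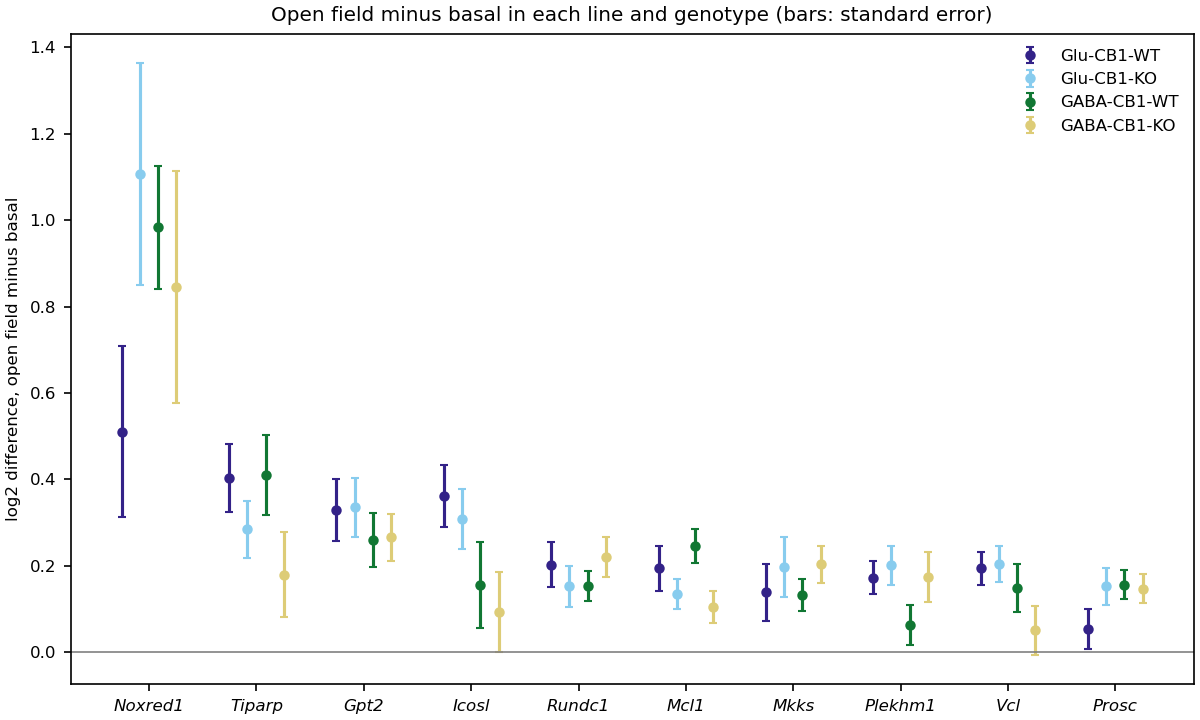
Log2 difference between open field and basal libraries (vertical axis) of each gene (horizontal axis) in CB1-WT and CB1-KO mice of both lines; points are edgeR estimates and bars are standard errors. All 40 estimates lie above 0, Noxred1 is set apart from the other 9 genes, and the GABA-CB1-KO points of Tiparp, Mcl1, Vcl and Icosl are the lowest of their gene.

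The mean of all 10 members was higher after open field exposure in each line and genotype, as it was for 49.0% and 46.7% of all genes in CB1-WT and CB1-KO mice of the Glu line and 48.3% and 50.5% in those of the GABA line. No marker list held a called gene in the open field comparison of either line, and the choroid plexus markers had a median log2 difference of 0.28 in the GABA line, whose part in the members' values was not tested beyond the values without the library in which they were highest. None of 8 vascular markers had a value above 0 in either line (medians -0.13 and -0.07), and none of 8 dentate granule markers in the GABA line (median -0.13, and -0.06 with 2 above 0 in the Glu line), and their part in the members' values was not tested. Libraries of the 2 states did not overlap for 7 of 10 members in CB1-WT and 2 in CB1-KO mice of the Glu line, and for 3 in CB1-WT and 2 in CB1-KO mice of the GABA line. Of all genes tested, 0.64%, 0.18%, 0.496% and 0.703% were higher without overlap in the same groups. Since the members were chosen on this contrast, the counts describe them and nothing is read from the gap. The number that ends each library label, taken here as that of the animal, falls into 3 ranges in the Glu line and 2 in the GABA line. These ranges were drawn in this work and are not named in the labels. Within each of the 5 ranges all 10 members had a higher mean log2 CPM after open field exposure. The ranges divide the same libraries on which the members were chosen, so this describes the members and does not replicate the difference. The median difference over members was 0.17, 0.25 and 0.22 in the Glu ranges and 0.17 and 0.18 in the GABA ranges. Noxred1 varied most between ranges, from 0.42 to 1.81 in the Glu line, where the highest value came from 2 basal and 3 open field libraries.

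Whether CB1 deletion altered these genes was asked within each line and state, a contrast that the rule for choosing the members does not name. The rule does not say in which mice the open field change was seen. If it was seen mainly in CB1-WT or mainly in CB1-KO mice, the comparisons after exposure and the interaction below are not independent of the choice. No member passed the edgeR quasi-likelihood test at an adjusted p under 0.05 in any of the 4 comparisons, and DESeq2 called none either. Of all genes tested edgeR called 0.0198% in Glu-CB1-KO against CB1-WT in the basal state, 0.272% after open field exposure, 0.245% in GABA-CB1-KO against CB1-WT in the basal state and 0.0199% after open field exposure, so calls were rare for any gene. For no member were the libraries of CB1-KO and CB1-WT free of overlap, which held for 0.192%, 0.743%, 0.709% and 0.987% of all genes in the same order.

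At an unadjusted p under 0.05 edgeR and DESeq2 each gave 0 of 10 members in the basal state of either line, 2 in the Glu line after exposure and 1 in the GABA line after exposure. The background at that level was 3.57%, 6.97%, 8.16% and 13.2% of all genes in the order above. After exposure Tiparp was lower in Glu-CB1-KO mice than in their littermates by a log2 difference of -0.17 ± 0.07 (95% interval -0.32 to -0.01, edgeR adjusted p = 0.672). Without Glu-CB1-WT open field replicate 3, the library at 33.4 CPM, the difference was -0.10 (edgeR adjusted p = 1.00). Prosc was higher in the same comparison by 0.07 ± 0.03 (interval 0.00 to 0.14, edgeR adjusted p = 0.696). Mcl1 was lower in GABA-CB1-KO than in CB1-WT mice after exposure by -0.10 ± 0.04 (interval -0.19 to -0.01, edgeR adjusted p = 0.352). Without GABA-CB1-KO open field replicate 4 the value of Mcl1 was -0.10 ± 0.05 (edgeR unadjusted p = 0.0567, adjusted p = 0.513). None of the 3 passed the correction over all genes. In the Glu line after exposure the 8 CA3 and CA2 markers had a median log2 difference of -0.18 between genotypes, with 1 above 0 and 1 called lower. The 10 interneuron markers had a median of 0.12, with 9 above 0 and 1 called higher. The part of both lists in the values of Tiparp and Prosc was not tested. In the GABA line after exposure the 6 choroid plexus markers had a median of 2.49, with 6 above 0. The 29 immediate early genes had a median of -0.16, with 6 above 0. The part of these genes in the value of Mcl1 was not tested.

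The size that these comparisons leave possible differed between members. For Gpt2, whose estimates were near 0 in the Glu line, the 95% interval ran from -0.18 to 0.17 in the basal state and from -0.12 to 0.12 after exposure. For Rundc1 the 4 intervals lay between -0.13 and 0.18, and for Plekhm1 between -0.13 and 0.20. For Noxred1 they ran from -0.94 to 0.23 and from -0.21 to 0.69 in the Glu line, and from -0.34 to 0.47 and from -0.55 to 0.39 in the GABA line, so a sizeable difference between genotypes was not detectable at this depth and number of mice. The GABA estimates of Noxred1 also moved with single libraries. In the basal state the value was 0.06 with all libraries and -0.13 without GABA-CB1-KO replicate 5, and after exposure it was -0.08 with all libraries and -0.27 without GABA-CB1-KO replicate 4. Icosl after exposure was at -0.04 with all libraries and at 0.05 without GABA-CB1-KO replicate 4, and Vcl in the basal state was at 0.03 with all libraries and at -0.02 without GABA-CB1-KO replicate 5.

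**Figure D3:**
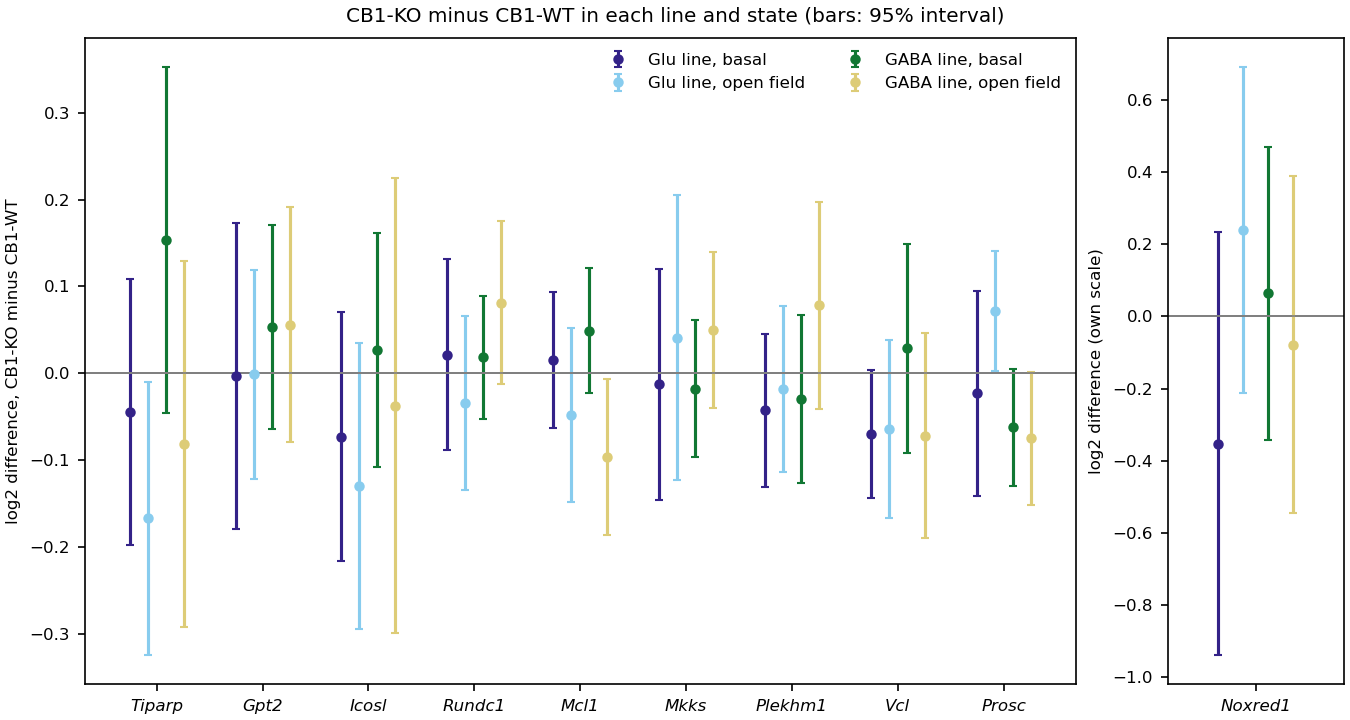
Log2 difference between CB1-KO and CB1-WT libraries (vertical axes) of each gene at baseline and after the open field in both lines; points are edgeR estimates, bars are 95% intervals, and Noxred1 has its own scale on the right. Of the 40 intervals 37 include 0, and the 3 that do not (Tiparp and Prosc in the Glu line and Mcl1 in the GABA line, all after open field exposure) did not pass the correction over all genes.

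Whether the open field difference itself changed with genotype was tested as an interaction over the 24 libraries of each line. No member and no gene was called in either line by edgeR, where 0.0% of all genes were called, and DESeq2 called no member, though 62 other genes in the GABA line. At an unadjusted p under 0.05 there were 0 members in the Glu line, against 2.47% of all genes, and 1 in the GABA line, against 14.6% of all genes. That member was Mcl1, whose difference was smaller in GABA-CB1-KO than in CB1-WT mice by a log2 value of -0.15 ± 0.05 (95% interval -0.26 to -0.03, edgeR adjusted p = 0.249, and 0.140 to 0.418 over 6 alternatives). Without GABA-CB1-KO basal replicate 5 the value of Mcl1 was -0.11 ± 0.05 (edgeR adjusted p = 0.356). Tiparp had the largest estimate of the same sign, -0.23 ± 0.14 (interval -0.53 to 0.06), and -0.15 ± 0.14 without that library. Noxred1 had the largest of the Glu line, 0.59 ± 0.36 (interval -0.16 to 1.34), and Gpt2 the smallest in both lines, at 0.00 with intervals from -0.21 to 0.22 and from -0.18 to 0.19.

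The basal libraries of the CB1-WT mice of the 2 lines were compared as well, where line, breeding and library numbers cannot be told apart. No member and no gene was called by edgeR or by DESeq2 among 15150 genes. At an unadjusted p under 0.05 edgeR gave 0 members and 617 genes (4.07%), and DESeq2 gave 1 member. The largest estimate was that of Noxred1, 0.30 (interval -0.02 to 0.62), followed by Mcl1 at 0.07 (interval from just under 0 to 0.14), both higher in the Glu line. Without GABA-CB1-WT basal replicate 3, where choroid plexus markers were also high, they were at 0.25 and 0.08.

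Variation of the members within groups is described by correlation. After the group means were subtracted, all 45 pairs of members had a Pearson correlation above 0 over the 48 libraries, with a median of 0.33 and a range of 0.02 to 0.73. The highest was that of Rundc1 and Gpt2 at 0.73, followed by Prosc and Gpt2 at 0.71. These are descriptions over libraries that share a scaling and a preparation. The same values for pairs of other genes are not given here, so nothing particular to the members is read from the count or the median. Against the mean of 29 immediate early genes, the correlation after removal of group means was highest for Mcl1 at 0.66, Tiparp at 0.57 and Rundc1 at 0.56, and lowest for Icosl at 0.03. In the 24 open field libraries alone it was 0.74 for Mcl1, 0.63 for Tiparp, 0.65 for Rundc1 and 0.03 for Icosl, and in the 24 basal libraries it was 0.47, 0.50, 0.45 and 0.02 in the same order. Vcl had 0.26 in the open field and 0.50 in the basal libraries. The basal values include GABA-CB1-KO basal replicate 5, the highest of its group in the immediate early mean (4.24), Mcl1, Tiparp and Vcl. The open field values include Glu-CB1-WT open field replicate 3, the highest of its group in the immediate early mean (4.85), Mcl1 and Tiparp. Correlations without these libraries are not given here, so how far they rest on them was not tested.

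**Figure D4:**
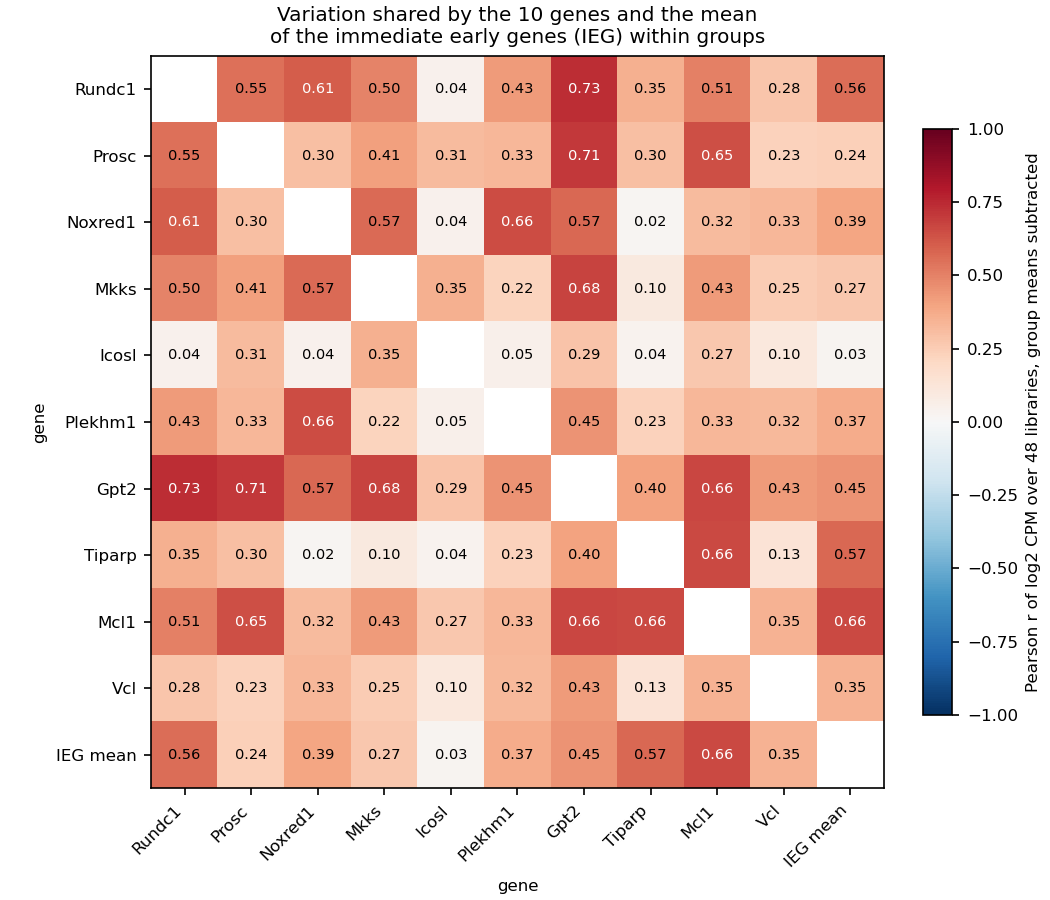
Pearson correlation of log2 CPM over 48 libraries after subtraction of the 8 group means (colour scale, with the value printed in each cell) among the 10 genes and the mean of the 29 immediate early genes (IEG mean), which label both axes. Icosl has the palest row, with 0.03 against the immediate early mean, while Mcl1 and Gpt2 have values of 0.27 or more with every other member.

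Over all 48 libraries, group differences included, the genes with the pattern most like each member were named by correlation of log2 CPM. These values contain the open field difference on which the members were chosen. Part of the likeness to other genes that responded therefore follows from the choice. Rundc1 was closest to Gpt2 (0.88) and Spata2l (0.87), and Gpt2 to Adipor2 (0.88) and Rundc1. Mcl1 was closest to Egr4 (0.87), an immediate early transcription factor, and Etv3 (0.86), and Tiparp to Rasl11b (0.83) and Mcl1 (0.81). After removal of group means these were 0.63 and 0.65 for Mcl1, and 0.72 and 0.66 for Tiparp. Mkks was closest to Xbp1 (0.86), the transcription factor of the unfolded protein response, and Mlec (0.84), a lectin of the endoplasmic reticulum. Plekhm1 was closest to Tm6sf2 (0.88) and Dok3 (0.86). Noxred1 was closest to Cbfa2t3 (0.85) and Znrf1 (0.84), and Prosc to Ppp1r15b (0.83) and Ncbp1 (0.82). Vcl was closest to Prkab2 (0.80) and P4ha1 (0.77), and Icosl to Dnajb4 (0.74), the lowest of the 10 closest values.

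Genes that work beside the members were counted in the open field comparison of each line, with the members left out. Of all genes tested, 1.32% rose and 0.507% fell in the Glu line, and 0.762% rose and 0.204% fell in the GABA line, with a median log2 difference of -0.01 and -0.000555. For 6 related lists no gene was called by edgeR in either line. These were 11 tested RUN domain genes, 18 genes of late endosome and lysosome fusion, 19 genes of vitamin B6 salvage and B6 enzymes, 18 genes of glutamate, alanine and pyruvate metabolism, 20 genes of the Bardet-Biedl and chaperonin complexes, and 5 genes of the B7 family and its receptors. Their median log2 differences lay between -0.03 and 0.01. DESeq2 called 1 lysosome fusion gene higher and 1 B7 family gene lower in the Glu line, and no other gene of these lists.

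In the remaining partner lists single genes passed. Aldh18a1, which makes the proline precursor, was the 1 of 6 proline synthesis genes called by edgeR, higher by 0.13 ± 0.03 in the Glu line (edgeR adjusted p = 0.0391), where DESeq2 called 2 and the replicate block 0, and 0 of 6 were called in the GABA line. Of 19 genes of the aryl hydrocarbon receptor pathway and PARP family, Parp16 fell by a log2 value of 0.21 ± 0.05 for mice of the Glu line (edgeR adjusted p = 0.0329), and 0 passed in the GABA line. Of 14 tested genes of the BCL2 family, 0 passed in the Glu line and Bbc3, the pro-apoptotic PUMA gene, fell by 0.33 in the GABA line (edgeR adjusted p = 0.0259). Pmaip1, which encodes NOXA, a BH3 protein that binds MCL1, was at 0.36 ± 0.14 and 0.28 ± 0.10 without passing (edgeR adjusted p = 0.213 and 0.189). Of 22 focal adhesion genes, Tns3 rose by 0.13 ± 0.03 in the GABA line (edgeR adjusted p = 0.0383) and 0 passed in the Glu line. The calls of Aldh18a1, Parp16 and Tns3 were lost when single libraries were left out, in 15, 11 and 14 of 24 cases in turn, with adjusted p up to 0.0795, 0.0691 and 0.0852. Those of Bbc3 were lost in 3 of 24, without GABA-CB1-WT basal replicate 3 or 5 or GABA-CB1-KO basal replicate 2 (adjusted p up to 0.0532). Other processing ended these calls as well. That of Aldh18a1 was lost in 3 of 6 alternatives (no filter, the animal number range as covariate, and the replicate block, edgeR adjusted p up to 0.0563) and that of Parp16 in 2 of 6 (no filter and the block, up to 0.0687). Those of Tns3 and Bbc3 were each lost in 2 of 6 (the fit to all 48 libraries and the block, up to 0.123 and 0.0899).

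Of 29 tested immediate early genes 14 rose in the Glu line and 13 in the GABA line, and none fell, with median log2 differences of 0.29 and 0.30. Egr2 rose by 2.40 ± 0.23 and 2.27 ± 0.34, Fos by 1.92 ± 0.21 and 1.95 ± 0.26, and Fosb by 1.37 ± 0.14 and 1.30 ± 0.18 (edgeR adjusted p at most 0.00131). Arc rose by 0.64 ± 0.15 and 0.69 ± 0.15, and Egr1 by 0.69 ± 0.10 and 0.82 ± 0.09 (edgeR adjusted p at most 0.0223). The call of Arc in the GABA line was lost with the replicate block (edgeR adjusted p = 0.0649). Arc had been used in part to pick the animals, so its difference is not independent of the sampling. Beside these, 9 of the 10 members had log2 differences of 0.33 or less. The estimates of Noxred1, a gene chosen for its change and low in counts, lay above those of Egr1 and Arc in both lines. The gap to Egr1 was within their standard errors, and without GABA-CB1-KO open field replicate 4 Noxred1 was at 0.84 in the GABA line. Of 14 glucocorticoid-induced genes 5 rose in the Glu line and 3 in the GABA line. Sgk1 rose by 0.49 ± 0.12 and 0.53 ± 0.10, and Errfi1 by 0.41 ± 0.06 and 0.35 ± 0.06 (edgeR adjusted p at most 0.0321). Tsc22d3 rose by 0.61 ± 0.14 in the Glu line (edgeR adjusted p = 0.0202) and was at 0.32 ± 0.12 in the GABA line without passing, and Per1 rose by 0.41 ± 0.08 and 0.30 ± 0.07. The call of Sgk1 in the Glu line was lost in 9 of 24 cases with a single library left out, and that of Per1 in the GABA line in 12 of 24 and in 2 of 6 alternatives (the fit to all 48 libraries and the replicate block, edgeR adjusted p up to 0.123).

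In the genotype comparisons, genes of the related lists were called only in GABA-CB1-KO against CB1-WT in the basal state. Bok of the BCL2 family was lower by a log2 difference of -0.52 ± 0.07 (edgeR adjusted p = 0.00328), and it is also 1 of 8 markers of CA3 and CA2 pyramidal neurons, whose median difference was -0.03. Ptgs2 and Npas4, both immediate early genes, were lower by -0.67 ± 0.07 and -0.49 ± 0.07 (edgeR adjusted p = 0.000668 and 0.00604). The call of Bok was lost with the replicate number as a block (edgeR adjusted p = 0.0643, the highest of 6 alternatives). That of Npas4 was lost with the block (adjusted p = 0.0734) and in the fit to all 48 libraries (adjusted p = 0.616, the highest of 6 alternatives), while Ptgs2 was called under all 6.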

How the data were processed

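Bulk RNA of 48 hippocampal samples was measured by sequencing. The authors trimmed reads with bbduk, aligned them with STAR 2.6.0a to mm10, counted them per gene with featureCounts 1.6.2 under a strand setting, and deposited raw read counts without normalization, one column per library, and the exon length. Libraries were made from amplified cDNA, and molecular identifiers are not named in the sources used here. In this work counts were fitted with edgeR 4.0.16 in R 4.3.3 (TMM, filterByExpr, quasi-likelihood test, Benjamini-Hochberg adjustment over all genes tested, called at adjusted p under 0.05), with the libraries of the groups compared and, for the open field difference, genotype as covariate. Alternatives were DESeq2 1.42.0, RLE size factors, no filter, all 48 libraries in 1 fit, the range of animal numbers as covariate, the replicate number as block, and fits that omit 1 library at a time. Levels are TMM-normalised CPM. Log2 CPM used a prior count of 2. Intervals of 95% come from the fits. The scripts were tested on simulated data. Each library label ends in its own number, taken here as that of the animal. Named beside the members are called genes of related lists (up to 3 per direction), Arc, Fos and Egr1, the 2 genes most like each member (1 for Icosl is not reported here), and overlapping genes, while Vipas39 and Pmaip1 were added after their values were seen. The members, the lists and the motifs were chosen with earlier results of these data known.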

Additional observations from a re-analysis of the deposited data

Results flagged for a closer look

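Over the 10 genes and 8 groups, 5 of 80 group values held a library far from the rest of its group (Dixon's test of the gap to the nearest library), and chance alone flags about 1 in 20 groups. Of these, 3 came from GABA-CB1-KO basal replicate 5, where Noxred1 was at 1.80 CPM against 0.771 to 1.15 CPM in the other 5 libraries, Mcl1 at 81.4 CPM against 70.5 to 73.9 CPM, and Vcl at 85.3 CPM against 67.3 to 73.6 CPM. The immediate early genes were also highest of their group in this library. Without it the open field difference of the GABA line was 1.00 for Noxred1, 0.20 for Mcl1 and 0.13 for Vcl on the log2 scale, against 0.92, 0.18 and 0.10 with it. Icosl was at 28.9 CPM in Glu-CB1-KO open field replicate 6 against 20.1 to 22.4 CPM in the other 6 libraries, and without it the difference of the Glu line was 0.29. Mkks was at 29.05 CPM in GABA-CB1-WT open field replicate 5 against 32.5 to 34.4 CPM in the other 6 libraries.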

How the results depend on the processing

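No member was called in any genotype, interaction or CB1-WT line comparison under any alternative or with any library left out. For the members, all 160 alternative values of the open field difference kept their sign, with the animal number range as covariate included. They also stayed within 1 SD between replicates on the log2 scale. The members were chosen on this contrast, so a kept sign only describes them. The SD is a wide limit for small differences: for Icosl it was 0.17, against a GABA line difference of 0.13. Leaving out single libraries gave 0.10 to 0.16 for Icosl in that line, and 0.09 to 0.13 for Plekhm1 against 0.12. The number of genes called moved more. DESeq2 called 7 and 123 genes in the Glu-CB1 genotype comparisons (basal, open field), 102 and 143 in the GABA-CB1 ones, 62 in the GABA-CB1 interaction, and 492 and 276 in the open field comparisons of the 2 lines, against 3, 41, 37, 3, 0, 277 and 147 by edgeR. All 48 libraries in 1 fit gave 7 in Glu-CB1 basal and 106 in GABA-CB1 open field, and the number range as covariate gave 24 in GABA-CB1 basal. Same-numbered libraries showed no steady tendency to deviate together. In each comparison 0 to 3 pairs of 5 to 7 correlated above 0.1, with median correlations from -0.14 to 0.11 and a highest value of 0.38. This check cannot exclude a pairing of animals, and the labels name none. The replicate block gave 3 genes in Glu-CB1 open field, 8 in GABA-CB1 basal, 1 in GABA-CB1 open field and 37 in the open field comparison of the GABA line. Leaving out each library gave 3 to 5, 14 to 48, 17 to 34 and 2 to 11 genes in the 4 genotype comparisons in the order above, 0 to 1 in the GABA-CB1 interaction, and 149 to 436 and 64 to 268 in the open field comparisons. The lowest counts came without Glu-CB1-WT open field replicate 3 (14), GABA-CB1-KO basal replicate 6 (17), Glu-CB1-KO basal replicate 7 (149) and GABA-CB1-KO basal replicate 2 (64), and the highest without GABA-CB1-KO open field replicate 1 (11), Glu-CB1-KO basal replicate 3 (436) and GABA-CB1-KO basal replicate 5 (268). The cause of these shifts was not tested. Depth limits Noxred1, with at most 99 reads per library.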
